A study of Arabidopsis thaliana with 4 samples.

Results

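PRK, SBPASE and RCA are 3 nuclear genes of photosynthetic carbon fixation. They were chosen by their symbols among the 13350 Arabidopsis thaliana genes named by a probe set, with their signals on these arrays already known, so their levels are a description and carry no test. PRK (AT1G32060, chromosome 1) is read by probe set 255720_at, SBPASE (AT3G55800, chromosome 3) by 251762_at and RCA (AT2G39730, chromosome 2) by 245061_at, 1 probe set each. RefSeq (TAIR10.1) lists 3 transcripts for RCA, which 1 probe set cannot tell apart, and 1 each for PRK and SBPASE.

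The Calvin cycle runs in the chloroplast stroma, where Rubisco joins CO2 to ribulose bisphosphate and the other enzymes rebuild that acceptor with ATP and NADPH from the thylakoids. PRK, phosphoribulokinase, makes the acceptor in the last step of the cycle, and SBPASE, sedoheptulose bisphosphatase, commits carbon to its regeneration; both enzymes are switched on in the light through thioredoxin. RCA, Rubisco activase, is an ATP-driven chaperone that frees the active sites of Rubisco from bound sugar phosphates. Their mRNAs are made in the nucleus, are abundant in green tissue, and in plants follow light, the clock and sugar supply.

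Whole seedlings of 4 groups were compared: the Columbia wild type (WT), the emf2 mutant, and each of these backgrounds with 35S::BoEMF2.1, called transWT and rescued emf2. EMF2 is a Polycomb protein that keeps flowering genes silent, and 35S is a strong promoter active in most plant cells, here driving a Brassica oleracea gene named after EMF2. All seedlings were 7 days old, from agar with 1.5% sucrose at 21 °C in short days (8 h light and 16 h dark). Both transgenic groups had hygromycin in their plates and the others did not, so transgene and antibiotic cannot be told apart. The sources used here do not give the emf2 allele, the number of transgenic lines or the number of seedlings pooled per sample. No probe set is named as EMF2, so the genotypes were not checked by its signal.

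RNA of each group was hybridised to 1 Affymetrix array, so the differences below come without replicates and without p-values. Between 13394 and 14015 of the 22746 non-control probe sets exceeded the floor of 87.6 on an array; lower signals were set to it before ratios were taken. Poly-A control probe sets (7 above the floor on every array) were at a median of 1.92-fold of WT on the transWT array and 2.48-fold on the rescued emf2 array, against 1.05-fold in emf2. Probe sets with a mean signal over 5000, of which there were 634, had a median log2 ratio of 0.22 in transWT over WT and 0.20 in rescued emf2 over emf2, against 0.05 in emf2 over WT. The part of this shift in the members' ratios was not tested, and values relative to it are given below. The error of a log2 ratio, from the disagreement of the probe sets of 46 genes with more than 1, was 0.30 to 0.38 (SD, by comparison); it holds no variation between plantings.

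SBPASE had the widest spread of the 3 genes. Its signal was 2668 in emf2, 7890 in rescued emf2, 8341 in WT and 10495 in transWT. The emf2 array alone was low, and the other 3 lay within 1.33-fold of each other. PRK read 4454 in emf2, 7682 in rescued emf2, 11646 in WT and 11755 in transWT. WT and transWT were level for PRK, rescued emf2 stood between them and emf2, and emf2 was again lowest. RCA read 12239 in emf2, 16006 in WT, 24480 in rescued emf2 and 25436 in transWT. Here both arrays with the transgene were high, both without it were low, and emf2 was the lower of the latter.

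**Figure D1:**
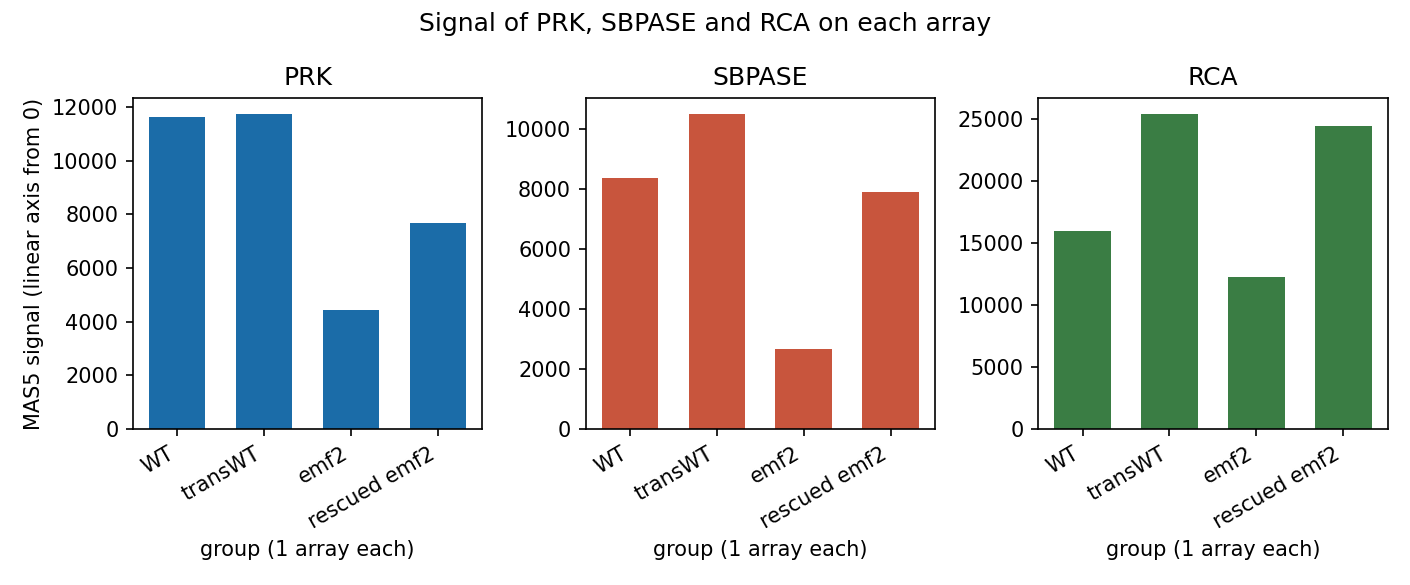
Signal of PRK, SBPASE and RCA (MAS5 units, linear axes from 0, each gene on its own axis) in WT, transWT, emf2 and rescued emf2; each bar is 1 array and there are no error bars. PRK and SBPASE are lowest in emf2, at 4454 and 2668, while RCA is highest on the arrays with 35S::BoEMF2.1, at 25436 and 24480.

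All 3 genes were among the bright ones on every array. Among 22746 probe sets RCA ranked 14 in transWT, 20 in rescued emf2, 31 in WT and 81 in emf2. PRK ranked 109 in WT, 158 in transWT, 361 in rescued emf2 and 723 in emf2. SBPASE ranked 196 in transWT, 245 in WT, 342 in rescued emf2 and 1334 in emf2. The brightest probe set read 23755 on the WT array, 24807 on the emf2 array, 35035 on the transWT array and 35621 on the rescued emf2 array, so RCA lay close to the top of the range. That top was higher on both arrays with the transgene, where RCA was also higher. The part of this difference in the ratios of RCA was not tested. The deposited table holds no mark for saturated probes.

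Each of the 3 genes was lowest in emf2. Of 12145 probe sets with every signal over the floor, 28.4% were lowest there. PRK and SBPASE shared the order transWT, WT, rescued emf2, emf2, which 6.88% of these probe sets had. Within it, WT and transWT differed by less than the error of a ratio for both genes (log2 0.01 for PRK and 0.33 for SBPASE, against 0.33), and so did WT and rescued emf2 for SBPASE (-0.08 against 0.38). RCA had the order transWT, rescued emf2, WT, emf2, found in 6.18% of probe sets. Its first and second array differed by less than the error (-0.06 against 0.35), and the next steps down by 0.61 and 0.39 on the log2 scale, 1.60 and 1.28 times the error.

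Emf2 over WT sets the mutant against the wild type where neither carries the transgene. SBPASE was 3.13-fold lower in emf2 (log2 -1.64) and PRK 2.61-fold lower (-1.39), while RCA was 1.31-fold lower (-0.39). Thus 2 of 3 genes were at least 2-fold lower, where 11.1% of 14653 measured probe sets (those above the floor on either array) were, 7.34% were 2-fold higher and 18.5% were past 2-fold in either direction; the genes were chosen with this contrast in view, and nothing is read from the count. Of the measured probe sets, 3.51% had a lower log2 ratio than SBPASE and 5.60% a lower one than PRK, against 31.2% for RCA. SBPASE and PRK differed from each other by 0.26, less than the error of such a difference (0.43), and SBPASE and RCA by 1.26, 2.94 times that error.

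The same mutation in the presence of the transgene was read from rescued emf2 over transWT, which shares no array with emf2 over WT. PRK was 1.53-fold lower in rescued emf2 (log2 -0.61), SBPASE 1.33-fold lower (-0.41) and RCA 1.04-fold lower (-0.06). None of the 3 was at least 2-fold different, against 5.25% of 14250 measured probe sets (2.26% higher and 2.99% lower). PRK was 1.78 times its error away from 0, SBPASE 1.19 times and RCA 0.16 times.

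TransWT over WT shows the transgene, with its hygromycin, in wild-type plants. RCA was 1.59-fold higher in transWT (log2 0.67), SBPASE 1.26-fold higher (0.33) and PRK level (0.01). No member was 2-fold different, against 9.2% of 14620 measured probe sets (3.88% higher and 5.32% lower). Relative to the bright probe sets of the same arrays RCA was at 0.44, SBPASE at 0.11 and PRK at -0.21, and the sign of the PRK ratio also turned after quantile normalization (-0.24), after cyclic loess (-0.18) and with arrays scaled to 4 reference genes (-0.14). After quantile normalization RCA was at 0.26.

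Rescued emf2 over emf2 shows the transgene, again with hygromycin, in mutant plants. SBPASE was 2.96-fold higher in rescued emf2 (log2 1.56), RCA 2.0-fold higher (1.0) and PRK 1.72-fold higher (0.79). So 2 of 3 genes were at least 2-fold higher, against 5.85% of 14122 measured probe sets, with 4.97% 2-fold lower and 10.8% past 2-fold in either direction; this contrast too was in view when the genes were chosen. SBPASE stayed past 2-fold in all 9 alternative settings, with log2 ratios from 1.36 to 1.73, though settings of the floor could not move so bright a gene. RCA sat on the threshold and was below it after quantile normalization (0.58), after cyclic loess (0.70) and relative to the bright probe sets (0.80).

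Rescued emf2 over WT sets apart arrays that differ in the mutation, the transgene and hygromycin at once. SBPASE was level with WT (log2 -0.08), PRK was 1.52-fold lower (-0.60) and RCA 1.53-fold higher (0.61). None passed 2-fold, against 15.8% of 14593 measured probe sets (5.91% higher and 9.9% lower). PRK and RCA differed by 1.21, 2.24 times the error of such a difference. The bright probe sets had a median of 0.22 here, and relative to them SBPASE was at -0.30, PRK at -0.82 and RCA at 0.39. The sign of the SBPASE ratio turned when arrays were scaled to their medians (0.18), and RCA was at 0.18 after quantile normalization. Emf2 over WT, rescued emf2 over emf2 and rescued emf2 over WT share arrays pairwise, so an odd reading on 1 array enters more than 1 of them.

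**Figure D2:**
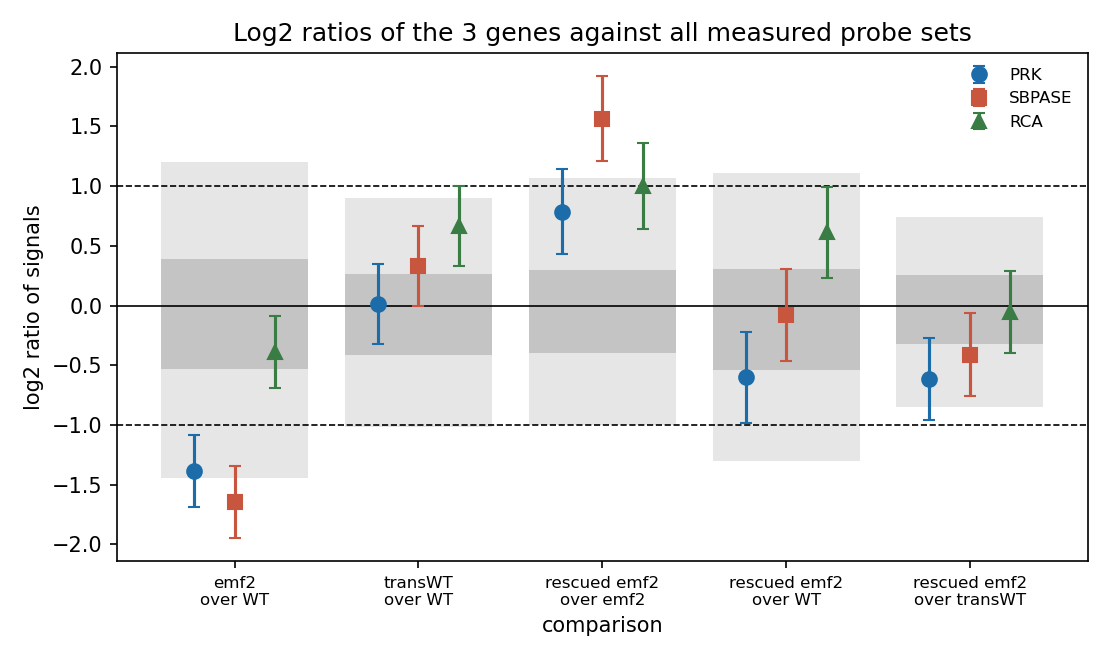
Log2 ratios of PRK, SBPASE and RCA in 5 comparisons of single arrays; error bars are ± 1 SD of a log2 ratio from genes with several probe sets, dark and light grey boxes span the middle 50% and 90% of measured probe sets, and dashed lines mark 2-fold. SBPASE lies outside the light box in emf2 over WT (-1.64) and in rescued emf2 over emf2 (1.56), and no gene passes 2-fold in the other 3 comparisons.

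The transgene ratio in the emf2 background minus that in the wild-type background uses each array once. On the log2 scale it was 1.23 for SBPASE, 0.77 for PRK and 0.33 for RCA, with an error of 0.37 from genes with several probe sets. The transgene ratio of SBPASE was thus 2.35-fold larger in emf2 than in the wild type, and the value for RCA was smaller than its error. Of 13631 probe sets measured in both pairs, 3.43% had a larger value than SBPASE, 10.3% than PRK and 27.8% than RCA, and 10.2% differed by at least 2-fold in either direction. With arrays scaled to 4 reference genes the PRK value passed 2-fold (1.1). No residual degrees of freedom are left for a test of these differences.

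Averaged over both pairs, the emf2 background carried a log2 ratio of -1.03 for SBPASE, -1.0 for PRK and -0.22 for RCA, and the transgene with hygromycin 0.95 for SBPASE, 0.40 for PRK and 0.83 for RCA. The arrays with the transgene also had the higher bright probe sets: relative to these, the transgene value was 0.73 for SBPASE, 0.19 for PRK and 0.62 for RCA, and RCA was at 0.42 after quantile normalization. Under 9 alternative settings the background value ran from -1.17 to -0.85 for PRK and from -0.39 to -0.07 for RCA, and the transgene value from 0.19 to 0.50 for PRK and from 0.42 to 0.94 for RCA. Of the 12145 probe sets that exceeded the floor everywhere, 4.54% had a lower background value than SBPASE, 4.90% than PRK and 33.8% than RCA. For the transgene value, 3.63% were higher than SBPASE, 4.92% than RCA and 16.1% than PRK.

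The other genes of the cycle were taken from a list of 26, of which 6 were named here: the 3 genes above, rbcL, AT1G56190 and AT5G64380. rbcL, the plastid gene of the large Rubisco subunit, had signals of 175 in emf2, 370 in rescued emf2, 684 in WT and 1020 in transWT. Emf2 was 3.91-fold below WT and rescued emf2 2.76-fold below transWT, so its signal was lower in the mutant background with and without the transgene. How well the labelling reads plastid mRNA was not tested, so the rbcL signals may not follow its mRNA level. AT1G56190 was within 2-fold in all 5 comparisons, with 2952 in WT, 3315 in emf2, 4292 in rescued emf2 and 5282 in transWT; with arrays scaled to their medians 1 list gene passed 2-fold in transWT over WT. AT5G64380 read 235 in emf2, 236 in rescued emf2, 320 in transWT and 472 in WT. It was 2.01-fold lower in emf2 than in WT, on the threshold (log2 -1.01, and -0.80 with median scaling), and level between emf2 and rescued emf2 (log2 0.01).

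For the 6 list genes the median log2 ratio was -1.2 in emf2 over WT, 0.45 in transWT over WT, 0.89 in rescued emf2 over emf2, -0.34 in rescued emf2 over WT and -0.43 in rescued emf2 over transWT. The medians of all measured probe sets were -0.05, -0.07, -0.06, -0.10 and -0.03. Without PRK, SBPASE and RCA the list medians were -1.01, 0.58, 0.37, -0.89 and -0.44, over only 3 genes, with the plastid gene rbcL among them. In emf2 over WT, 4 of the 6 were at least 2-fold lower and 0 higher, against 11.1% and 7.34% of all measured probe sets. PRK and SBPASE are 2 of the 4, and rbcL is another. The count was 3, without AT5G64380, after quantile normalization, median scaling and cyclic loess and with the floor at the 60th percentile.

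Thioredoxins and ferredoxin-linked proteins pass electrons to stromal enzymes such as PRK and SBPASE. Of 20 listed genes 9 were named, and 3 of them were at least 2-fold lower in emf2 than in WT and 0 higher, against 11.1% and 7.34% of all measured probe sets. NTRC, a thioredoxin reductase with its own thioredoxin domain, was 2.83-fold lower, with signals of 491 in emf2, 687 in rescued emf2, 1390 in WT and 1471 in transWT. The y-type thioredoxin ty2 was 2.38-fold lower and the x-type THX 2.09-fold lower. TRXF2, an f-type thioredoxin, the type best known for activating Calvin cycle enzymes, was 1.85-fold lower, and the m-type ATHM2 1.15-fold lower. TY1, the other named y-type, was 1.81-fold higher. In rescued emf2 over transWT only NTRC passed 2-fold (2.14-fold lower), where 5.25% of all measured probe sets did. In rescued emf2 over emf2 only AT3G11630 did (2.19-fold higher), against 10.8% of them. The list medians were -0.81 in emf2 over WT and 0.64 in rescued emf2 over emf2.

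Rubisco folding and upkeep was covered by 15 listed genes, 8 of them named. In emf2 over WT 4 were at least 2-fold lower and 0 higher, where 11.1% and 7.34% of all measured probe sets were. The plastid chaperonin subunit genes behaved unlike each other: Cpn60beta4 was at least 3.39-fold lower in emf2 (297 in WT, below the floor in emf2), Cpn60beta2 2.27-fold lower and Cpn60beta3 1.28-fold higher. AT3G48420 was at 516 in emf2, 1537 in WT, 2724 in rescued emf2 and 3517 in transWT. That is 2.98-fold lower in emf2 than in WT and, with the transgene, 5.28-fold higher in the mutant and 2.29-fold higher in the wild type. AT5G28500 was 2.24-fold lower in emf2 and at a log2 ratio of 0.12 in rescued emf2 over emf2. AT3G04550 was 2.25-fold lower with the transgene in emf2.

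Photorespiration recycles the product that Rubisco makes from oxygen. Of 28 listed genes 7 were named, with a median log2 ratio of -0.83 in emf2 over WT, 0.81 in transWT over WT and 0.90 in rescued emf2 over emf2. HPR, the peroxisomal hydroxypyruvate reductase, read 4923 in emf2, 8752 in WT, 12490 in rescued emf2 and 15890 in transWT, with the arrays in the order seen for RCA. AT1G32470 was 2.29-fold lower in emf2 than in WT and 2.87-fold higher with the transgene in emf2. LrgB, a chloroplast envelope protein that exports glycolate, was 2.26-fold lower in emf2, and with the transgene 2.17-fold higher in the wild type and 2.96-fold higher in the mutant. AT2G35120 went the other way in emf2 over WT, 1.95-fold higher.

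In starch and sucrose metabolism, fed by the cycle, 7 of 36 listed genes were named. ATSPS4F, a sucrose phosphate synthase, was 4.77-fold lower in emf2 than in WT and 2.49-fold higher with the transgene in emf2, and SBE2.2, a starch branching enzyme, was 2.44-fold lower in emf2. PWD and DPE1, which act in starch breakdown, were lower with the transgene in both backgrounds: 5.33-fold and 5.71-fold in the wild type and 3.0-fold and 2.86-fold in emf2. These 2 genes thus had transgene ratios opposite to those of SBPASE and RCA. The 3 named genes of the oxidative pentose phosphate pathway and the 2 of cytosolic glycolysis, GAPC2 and TPI, which share sugar phosphates with the cycle, lay within 2-fold in every comparison; in emf2 over WT all 5 had ratios above 0, from 0.09 to 0.88. No carbonic anhydrase gene was named.

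As a check of the tissue, 8 of 34 listed genes of thylakoid proteins were named, with summed signals of 75651 in emf2, 100800 in WT, 128700 in rescued emf2 and 134930 in transWT. Their median log2 ratio was -0.30 in emf2 over WT and 0.77 in rescued emf2 over emf2. In the former 1 of 8, PSBY, was at least 2-fold lower, on the threshold (2.01-fold), against 11.1% of all measured probe sets. In emf2 over WT, SBPASE and PRK were lower than each of these 8, whose lowest ratio was -1.0, and RCA lay among them. Root markers were at or above WT in emf2. EXPA18 and EXPA7, expansins of root hair cells, exceeded WT 4.19-fold and 2.67-fold in emf2, while PYK10 was at 1.06-fold. In rescued emf2 these expansins were 2.96-fold and 2.09-fold lower than in emf2. The summed signal of the 3 ran from 15775 in WT to 18754 in rescued emf2, and most of it was PYK10 (15180 and 17950). The guard cell gene FMA was below the floor in emf2 and read 143 in WT, 159 in rescued emf2 and 165 in transWT. SPCH, also of the guard cell list, read 106 in WT and was below the floor in transWT, emf2 and rescued emf2. The seed gene PAP85 was below the floor on all arrays. SWEET11, of the phloem list, read 2296 in WT and 1547 in emf2. The part of tissue make-up in the members' ratios was not tested, and in RNA of whole seedlings fewer green cells and less RNA per green cell cannot be told apart. Of the epidermis, floral organ and senescence lists no gene was named. HYH, a light-signalling transcription factor and the only named one of 21 light and clock regulators, was below the floor in emf2 and read 159 in WT, 222 in rescued emf2 and 460 in transWT.

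**Figure D3:**
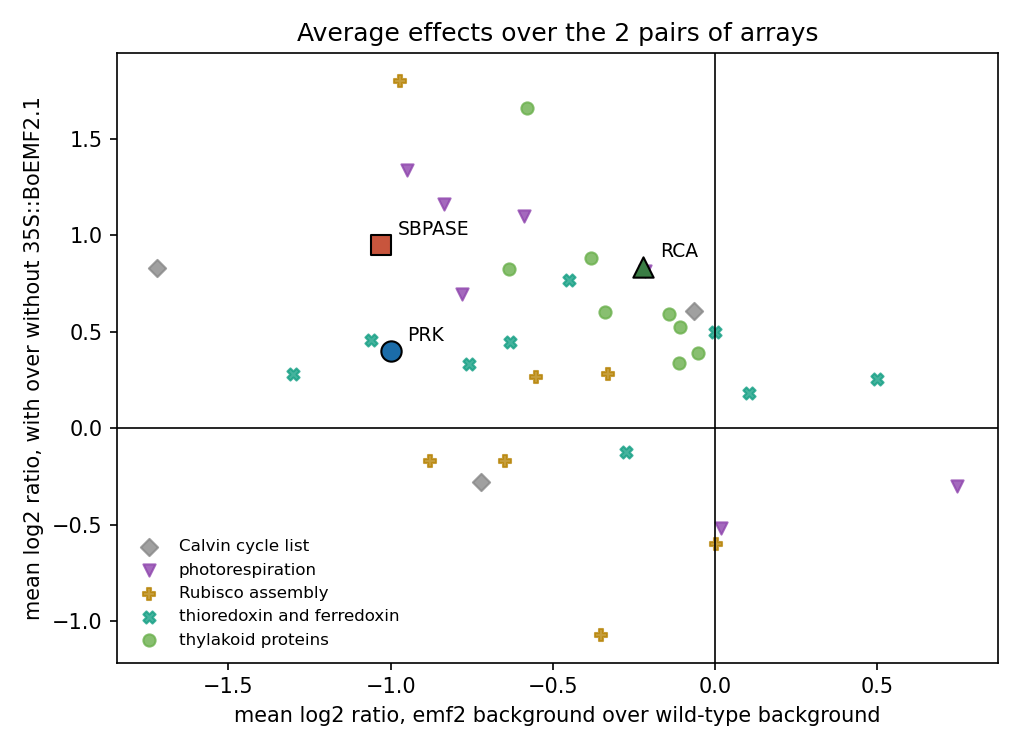
Mean log2 ratio of the emf2 background over the wild-type background (horizontal) and of arrays with over arrays without 35S::BoEMF2.1 (vertical) for named list genes above the floor on all arrays; each point is 1 gene, averaged over 2 ratios of single arrays, with no error bars. SBPASE (-1.03 and 0.95) and PRK (-1.0 and 0.40) lie left of all 8 thylakoid genes, and RCA (-0.22 and 0.83) lies among them.

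Genes with the most similar profile were found by the root-mean-square difference of mean-centred log2 signals over the 4 arrays, among 6393 other named genes above the floor on all of them. Nearest to PRK were AT1G33290 (0.05), AT2G26190, AT3G43540, AT5G22340 and AT1G78180 (0.06). Nearest to SBPASE were AT5G13770 (0.03), AT3G06770, TAPX, AT1G75460 and AT5G27560 (0.12); TAPX is the thylakoid ascorbate peroxidase, which removes hydrogen peroxide. Nearest to RCA were AT3G01830 (0.03), AT2G26340, CP5, LPA2 and AT5G02550 (0.07); LPA2 helps to assemble photosystem II, and CP5 (5315 in emf2, 7068 in WT, 10870 in rescued emf2 and 11913 in transWT) was the brightest of these. With 4 points many genes are alike by this measure. PRK and SBPASE were 0.30 apart; 6.62% of genes were closer to PRK than SBPASE was, and 1.77% closer to SBPASE than PRK was. RCA and PRK were 0.46 apart, with 31.2% of genes closer to RCA and 21.3% closer to PRK. RCA and SBPASE were 0.47 apart, with 32.1% of genes closer to RCA and 7.05% closer to SBPASE.

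The chromosomal neighbours of the 3 genes were read too, 3 protein-coding genes on each side in the order of TAIR10.1. LrgB is the second gene after PRK, and its ratios had the sign of PRK's in emf2 over WT (-1.17) and in rescued emf2 over emf2 (1.56), but it was 2.17-fold higher in transWT than in WT, where PRK was level. AT1G32090, the third gene after PRK, was at -1.48 in emf2 over WT, and AT1G32020 and AT1G32030 on the other side were below the floor on all arrays. Around SBPASE, the brightest measured neighbour was WLIM2b, with 4369 in WT and 6006 in emf2 (log2 0.46), and EPC1 was at 0.61. Beside RCA, AT2G39725 was at 1.2 in emf2 over WT and -1.53 in rescued emf2 over emf2, against -0.39 and 1.0 for RCA, and AT2G39750 and BPM3 lay within 0.30 of 0 in both.

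**Figure D4:**
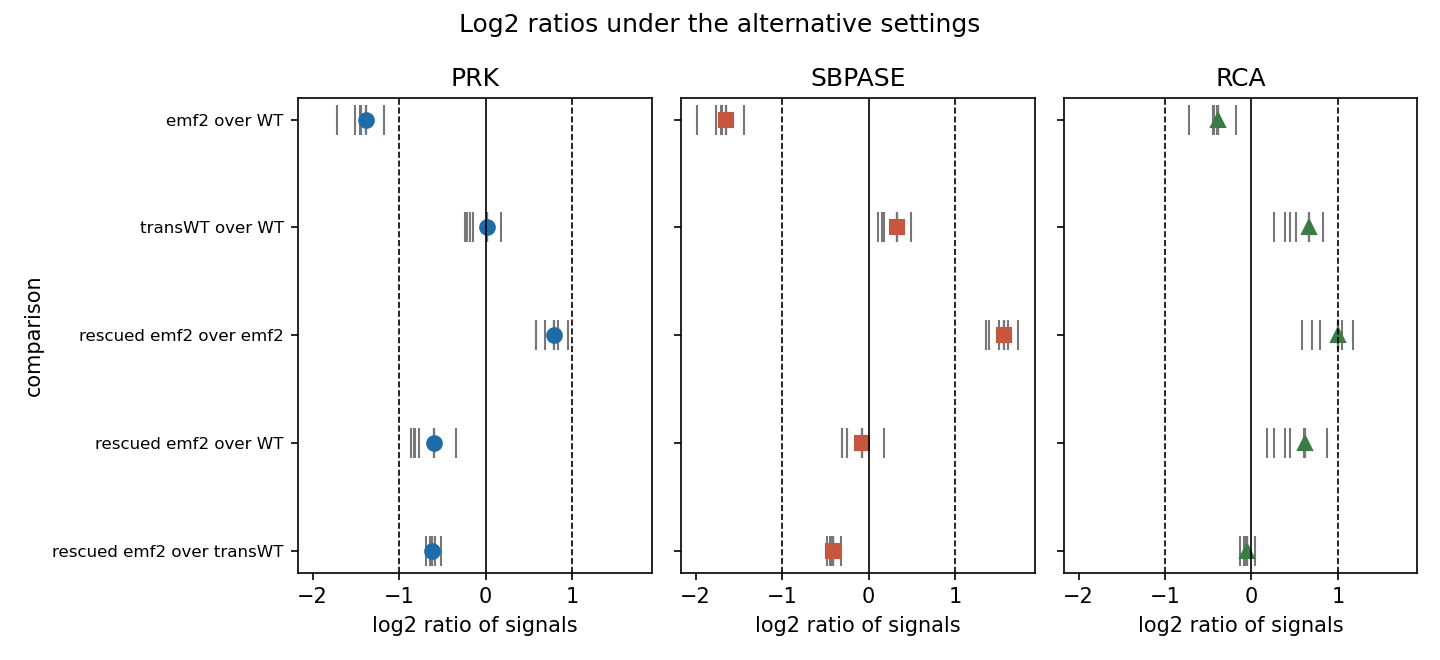
Log2 ratios of PRK, SBPASE and RCA in the 5 comparisons as reported (coloured symbols) and under 9 alternative settings of scaling and floor (grey ticks, some of which coincide); dashed lines mark 2-fold. PRK and SBPASE stay past 2-fold in emf2 over WT in every setting (highest -1.18 and -1.44), and RCA in rescued emf2 over emf2 runs from 0.58 to 1.17. Settings of the floor cannot move these bright genes.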

How the data were processed

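Total RNA (10 µg per sample) was labelled by the standard Affymetrix protocol, per the labels' protocols. The authors deposited 1 table of intensity values, linear signals of 22810 probe sets on 4 arrays from MAS5, as the submitters' processing notes name it; the sources used here do not give its version and settings. Arrays were rescaled to one 2%-trimmed mean, which changed almost nothing, and floored at the 40th percentile of the 22746 non-control probe sets (87.6). Ratios were taken between single arrays; a ratio counts as measured where the brighter array was above the floor, counted where it was at least 2-fold, and is a bound ("at least") where the dimmer array was below it. The number of arrays limits the precision.

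The members and 18 gene lists (258 entries, 62 named) were chosen with earlier results of these data known. Named are the 3 members, all measured genes of the Calvin cycle list, up to 4 genes of each other list past 2-fold in a comparison, otherwise up to 2, and the 5 nearest profiles; other list genes, and neighbours, were named after their values were seen. Of 14016 annotated probe sets, 13513 have 1 gene and 503 several; 8794 are not listed and stay unnamed. Of the 13513, 13436 were matched to current names in RefSeq (TAIR10.1, used for names and gene order); a gene is its brightest probe set. Loci without a symbol there are given by ID. The calls were tested on simulated data with planted drops larger than those of the 3 members, which does not bear on calls near 2-fold. Quantile and cyclic loess values came from limma 3.58.1, R 4.3.3; the rest from Python 3.11.15, pandas 2.3.3. Alternatives concern scaling, floor and threshold.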

Additional observations from a re-analysis of the deposited data

Results flagged for a closer look

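For 3 list genes the ratios of the same contrast had opposite signs, each larger than the error of a ratio: the transgene contrast in the wild type against that in emf2, or the emf2 contrast without the transgene against that with it; the difference was not tested. Cpn60beta2, a plastid chaperonin subunit gene, was lower with the transgene in the wild type (log2 -0.71) and higher with it in emf2 (0.37). Cpn60beta3, another subunit gene, was higher in emf2 than in WT (0.36) and lower in rescued emf2 than in transWT (-0.35). AT4G34270, one of the reference genes, was higher with the transgene in the wild type (0.41) and lower with it in emf2 (-0.51). The 0.369 of Cpn60beta2 and the -0.349 of Cpn60beta3 only just exceeded their errors of 0.357 and 0.346. Neither PRK, SBPASE nor RCA had such a pair of ratios. The share of all probe sets with such a pair was not counted, so nothing is read from these genes.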

How the results depend on the processing

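The log2 values of PRK, SBPASE and RCA, averages over both pairs included, moved by less than their error in 208 recomputed cases and by more in 8. The averages were held to a smaller error than single ratios. Many of the 208 cases could not move, because the signals as deposited and the settings of the floor leave such bright genes almost unchanged. No value past 2-fold changed sign. Relative to the bright probe sets is a setting chosen after the data were seen. After quantile normalization RCA was at 0.26 in transWT over WT, 0.58 in rescued emf2 over emf2 and 0.18 in rescued emf2 over WT. Its average transgene value was 0.42 after quantile normalization and 0.55 after cyclic loess; alternatives for the averages were chosen after the data were seen. Scaling to the 4 reference genes, which shifted the median of all probe sets by -0.31 in emf2 over WT, put PRK at -1.72, SBPASE at -1.98 and RCA at -0.72 there. These reference genes, GAPC2, AT4G34270, AT2G28390 and PEX4, were not all level in that comparison before this scaling. They were at log2 0.09, 0.73, -0.105 and 0.62. In rescued emf2 over transWT RCA ranged from -0.14 to 0.04. No paired analysis was possible because each group has 1 array.

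Counts of all probe sets at least 2-fold higher and lower depended on the scaling. Reported counts were 1076 and 1633 in emf2 over WT, 567 and 778 in transWT over WT, 826 and 702 in rescued emf2 over emf2, 863 and 1444 in rescued emf2 over WT, and 322 and 426 in rescued emf2 over transWT. Scaled to the median they were 1602 and 1163, 809 and 525, 901 and 652, 1417 and 829, and 427 and 328. Scaled to the reference genes they were 604 and 2802, 415 and 1231, 1124 and 478, 654 and 2010, and 318 and 437. In rescued emf2 over WT they were 1063 and 1093 after quantile normalization and 1047 and 1048 after cyclic loess, and in transWT over WT 673 and 610 after the latter. A floor at the 25th percentile gave these values: transWT over WT had 895 higher, and rescued emf2 over transWT 519 and 780. At the 60th percentile, in the order above, the counts were 672 and 891, 357 and 397, 519 and 394, 562 and 700, and 179 and 206. With no floor and a pseudocount of 1 they were 2461 and 3674, 2717 and 2104, 2920 and 2045, 2774 and 3217, and 1661 and 2337. At 1.5-fold they were 2446 and 3334, 1599 and 2370, 1938 and 2135, 2042 and 3311, and 1213 and 1646; at 3-fold, 375 and 574, 167 and 196, 273 and 189, 288 and 374, and 72 and 83. A lower floor or threshold counts more probe sets by construction.

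Of the Calvin cycle list, 3 genes in place of 4 were lower in emf2 over WT after quantile normalization, median scaling and cyclic loess. The same held with the floor at the 60th percentile. Of all probe sets 1441, 1163, 1459 and 891 were lower in these settings. In transWT over WT 1 list gene was higher with median scaling and 2 at 1.5-fold, against 809 and 1599 of all probe sets. In rescued emf2 over WT 2 were lower with reference scaling, against 2010. At 1.5-fold 1 was higher and 3 lower there, against 2042 and 3311. In rescued emf2 over transWT 2 were lower at 1.5-fold, against 1646. As reported, 14653, 14620, 14593 and 14250 probe sets were measured in these comparisons. Nothing is read from these counts of list genes.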
